A study of Mus musculus with 6 samples.

Results

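Vimentin, nestin, desmin, glial fibrillary acidic protein, synemin and the nuclear lamins are intermediate filament proteins outside the keratin family. The 8 genes Vim, Nes, Des, Gfap, Synm, Lmna, Lmnb1 and Lmnb2 were taken by name from the 19938 genes measured, and all 8 were measured, each by 1 probeset. Affymetrix whole-transcript arrays measured the mRNA of induced pluripotent stem (iPS) cells of the mouse in 3 lines of the shECAD group, clones 4, 8 and 9, and in 3 control lines, clones 2, 3 and 4. All 6 lines began as embryonic fibroblasts of the OG2 mouse strain, which carries a green fluorescent reporter driven by Oct4, and all received retroviruses for Sox2, Klf4, Oct4 and c-Myc. The shECAD lines also received a hairpin RNA that targets E-cadherin (gene Cdh1), and the control lines one that targets luciferase. From day 6 of infection the cells grew on feeders, the clones were taken as colonies on day 14, and feeders were removed before RNA extraction. Each line is 1 clone with 1 array, nothing in the labels describes separate infections, and the p-values therefore measure the spread between clones.

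Intermediate filaments are rope-like polymers that give cells and nuclei mechanical strength. In the cytoplasm, vimentin is the main filament of fibroblasts and other mesenchymal cells, desmin that of muscle, and glial fibrillary acidic protein that of astrocytes, while nestin and synemin copolymerise with such filaments. The lamins line the inside of the nuclear envelope: the B-type lamins are made by nearly all cells, whereas the A-type lamins, from Lmna, are low in pluripotent cells and accumulate as cells differentiate.

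The starts of the 3 genes that varied most over the 6 arrays, Nes, Vim and Lmna, are shown because the array values of Vim and Lmna ran close together while those of Nes did not. Each line gives 250 bases before and 50 bases after the annotated start in RefSeq (build GRCm38.p6), 5′ to 3′ on the strand of the gene. Windows were taken for 7 of the 8 genes, and none was taken for Lmnb1. Capitals mark matches on either strand to the TATA box (TATAAA), the CCAAT box (CCAAT), the GC box (GGGCGG) or the AP-1 site (TGANTCA).
Vim, chr2:13574061-13574360, plus strand: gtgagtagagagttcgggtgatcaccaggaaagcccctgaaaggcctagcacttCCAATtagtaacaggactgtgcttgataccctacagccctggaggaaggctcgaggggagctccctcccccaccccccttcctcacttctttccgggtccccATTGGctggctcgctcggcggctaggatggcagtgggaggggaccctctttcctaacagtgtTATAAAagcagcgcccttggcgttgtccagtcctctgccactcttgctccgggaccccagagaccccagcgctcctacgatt
Nes, chr3:87970843-87971142, plus strand: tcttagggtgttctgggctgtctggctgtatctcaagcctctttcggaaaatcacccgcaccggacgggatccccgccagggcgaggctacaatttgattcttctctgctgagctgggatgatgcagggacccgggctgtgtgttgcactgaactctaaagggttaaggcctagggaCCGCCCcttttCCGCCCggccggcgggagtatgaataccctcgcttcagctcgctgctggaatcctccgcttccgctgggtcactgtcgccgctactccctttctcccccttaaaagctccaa
Lmna, outermost of its annotated starts, chr3:88503303-88503602, minus strand: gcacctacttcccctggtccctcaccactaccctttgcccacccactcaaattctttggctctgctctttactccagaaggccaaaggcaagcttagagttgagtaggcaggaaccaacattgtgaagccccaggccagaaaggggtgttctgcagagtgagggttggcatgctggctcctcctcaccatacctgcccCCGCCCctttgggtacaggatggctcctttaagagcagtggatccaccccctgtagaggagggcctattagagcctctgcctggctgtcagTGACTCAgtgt

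The Vim window held a TATA box at -32 to -27 from the start and a CCAAT box at -196 to -192 and, on the other strand, at -94 to -90. The Nes window held GC boxes at -73 to -68 and at -62 to -57, and the Lmna window held a GC box at -52 to -47 and an AP-1 site at 40 to 46 after the start. Among 32851 promoter windows of the same length, 13.6% held the TATA box, 37.4% the CCAAT box, 35.7% the GC box and 7.81% the AP-1 site. The Nes and Lmna windows shown share the GC box, and the Vim and Lmna windows shown share none of these motifs. The inner Lmna start, not printed, had a CCAAT box at -131 to -127. These are matches of letters in short windows and no binding was measured.

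The arrays and the lines were checked first. The median log2 value ranged from 5.20 to 5.30 on the shECAD arrays and from 5.11 to 5.22 on the control arrays. Cdh1, the target of the hairpin, read 6.75, 6.92 and 7.81 in shECAD clones 4, 8 and 9, against 9.18, 9.60 and 9.07 in control clones 2, 3 and 4 (log2 fold change -2.13 ± 0.27 SE, limma adjusted p = 0.00683). All 12 pluripotency markers, among them Pou5f1 and Nanog, lay above the median gene on every array, 0 of the 12 passed the test in either direction and their median log2 fold change was -0.29. Pou5f1 and Nanog had log2 fold changes of -0.05 and 0.04, and the largest differences were in Esrrb (-0.81, limma adjusted p = 0.181) and Fgf4 (-0.79, adjusted p = 0.11). In 4 of the 12 every shECAD clone lay below every control clone, as in 12.5% of all genes, and in 0 every one lay above. Of 22 fibroblast and feeder markers, a list chosen with earlier results of these data known, 14 were called higher in shECAD clones and 0 lower. Over all genes, 1.9% were called higher and 1.23% lower. Of the 22 markers, 1 lay below the median gene on every array. The mean log2 level of that list was 7.36, 7.65 and 7.36 in shECAD clones 4, 8 and 9, against 6.67, 6.26 and 5.65 in control clones 2, 3 and 4. In these bulk samples, more cells of a type and more RNA per cell cannot be told apart.

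Of the 8 filament genes, 1, Nes, was called higher in the shECAD clones, 0 were called lower, and 7 did not pass the test. Over all genes tested, 3.12% were called at a limma adjusted p below 0.05, 1.9% as higher and 1.23% as lower. With arrays centred on their medians, the calls over all genes turned from 378 higher and 245 lower to 298 higher and 383 lower, and Nes was still called. In 4 of the 8 genes, Nes, Vim, Lmna and Synm, every shECAD clone lay above every control clone, a pattern seen in 11.1% of all genes, while the groups did not overlap in 23.6% in 1 direction or the other. The same 4 had an unadjusted p below 0.05, as did 18.0% of all genes. The median log2 fold change was 0.40 for the 8 genes and 0.03 for all genes.

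**Figure D1:**
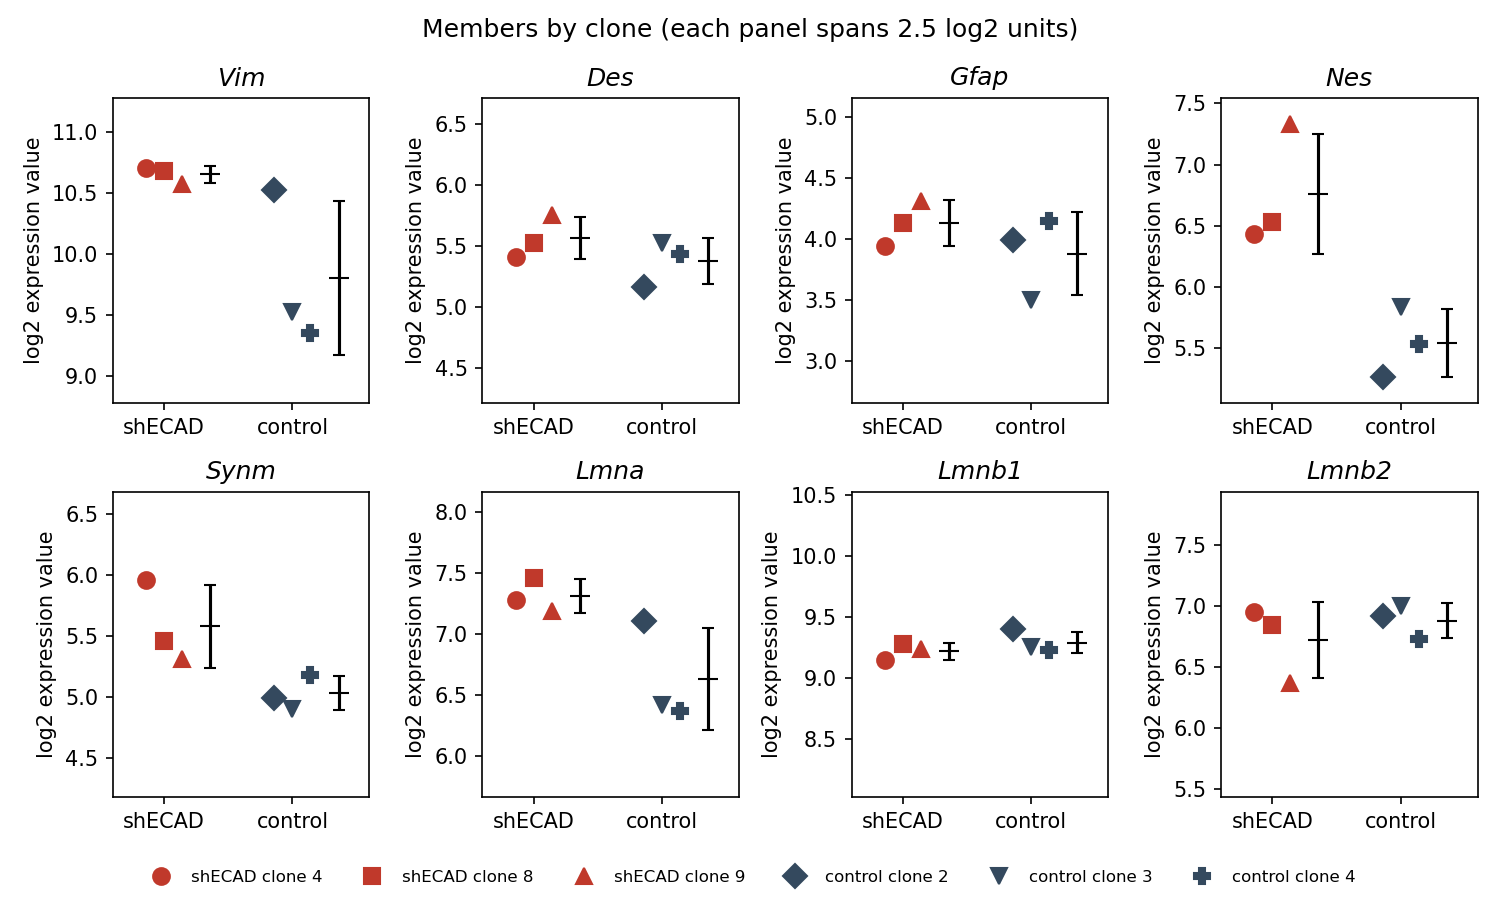
Log2 expression values of the 8 genes (vertical axis, 2.5 units in every panel) in the 3 shECAD clones (red, left) and the 3 control clones (dark, right), with 1 symbol per clone and the group mean ± SD beside the points. Control clone 2 (diamond) lies at 10.52 for Vim and 7.11 for Lmna, just under the shECAD clones, while for Nes it is the lowest of all at 5.26.

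**Figure D2:**
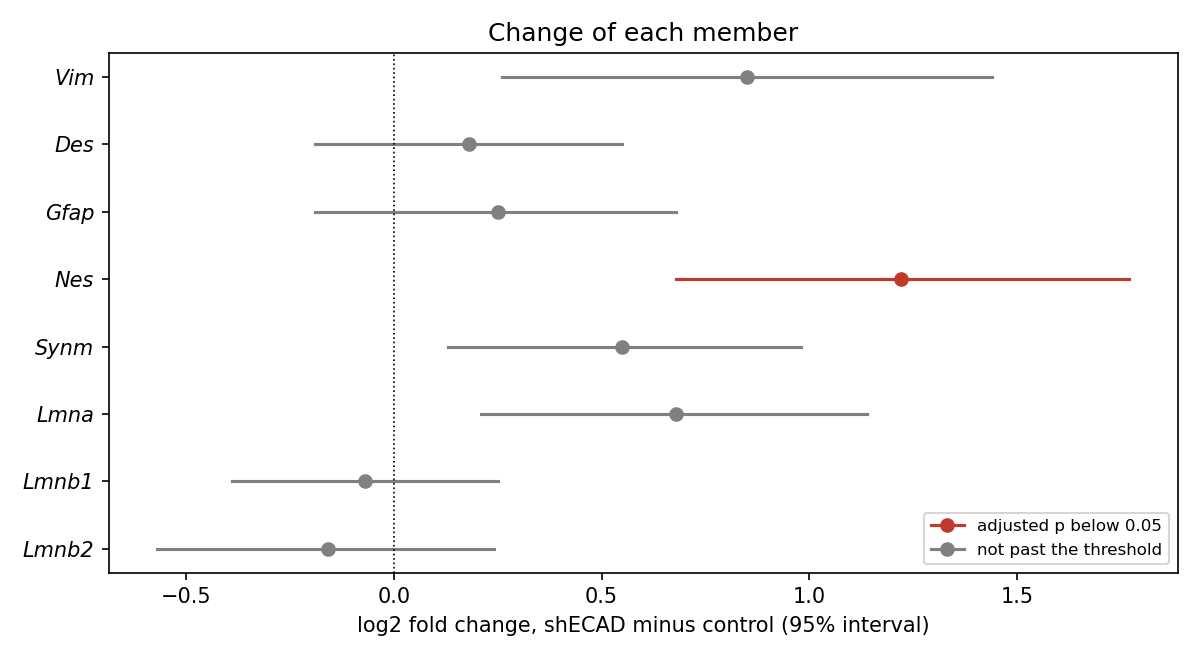
Log2 fold change of each gene, shECAD minus control, with the 95% interval of the limma fit (horizontal axis); red marks an adjusted p below 0.05 and grey the others. Nes lies farthest from 0 at 1.22, followed by Vim, Lmna and Synm, whose intervals lie above 0, while those of Des, Gfap, Lmnb1 and Lmnb2 include 0.

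Nestin, a large filament protein that was first used as a marker of neural stem cells and that needs vimentin or a similar partner to polymerise, showed the greatest change. Its probeset (10493114) read 6.43, 6.53 and 7.33 in shECAD clones 4, 8 and 9, against 5.26, 5.83 and 5.53 in control clones 2, 3 and 4. The groups were separated by 0.60 between the lowest shECAD clone and the highest control clone, and shECAD clone 9 stood above the other shECAD clones. Nes averaged 6.76 ± 0.49 in shECAD clones and 5.54 ± 0.28 in control clones (SD, n = 3 each), a 2.34-fold rise. This is a log2 fold change of 1.22 ± 0.25 SE, with a 95% interval from 0.68 to 1.77 and a limma adjusted p of 0.0302. The exact permutation test (two-sided, 20 labellings) had p = 0.1, which is the lowest value possible with 3 clones in each group.

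A fit with 1 clone left out also has fewer arrays, and these effects cannot be told apart. In such fits the call of Nes was not always kept. It was lost without shECAD clone 8 (log2 fold change 1.34, limma adjusted p = 0.0675), without shECAD clone 9 (0.94, adjusted p = 0.0518), without control clone 2 (1.09, adjusted p = 0.0685) and without control clone 4 (1.22, adjusted p = 0.0992). It was kept without shECAD clone 4 (1.39, adjusted p = 0.0475) and without control clone 3 (1.37, adjusted p = 0.0383). The change was positive in each of these fits. Without variance moderation its limma adjusted p was 0.261, and none of the other genes named here as called was called in that fit.

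The rise of Nes was not accompanied by calls, in either direction, among 12 markers of neural progenitors and neurons. By contrast, the neurofilament genes Nefl and Nefm, counted with the filament genes further on, were called higher. In 2 of the 12 markers every shECAD clone lay below every control clone, as in 12.5% of all genes. In 1 every one lay above, as in 11.1% of all genes. The median log2 fold change of the 12 was -0.09, and their mean level lay between 5.22 and 5.44 in the shECAD clones and between 5.32 and 5.50 in the control clones. Of the 12, 5 lay below the median gene on every array. The largest differences were lower values of Olig2, an oligodendrocyte lineage factor (log2 fold change -1.11, limma adjusted p = 0.0575), and of the neuronal tubulin gene Tubb3 (-0.45, adjusted p = 0.296). Olig2 passed the threshold in 6 alternatives, among them after median centring (-1.20, adjusted p = 0.0314) and quantile normalization (-1.20, adjusted p = 0.0414). The level of the fibroblast and feeder markers was higher in the same clones as Nes, and its part in the change of Nes was not tested. Within the shECAD group the orders differed: clone 9 was highest for Nes, and clone 8 for the fibroblast list.

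Vimentin, the filament protein most used as a marker of mesenchymal cells, was higher in the shECAD clones without passing the test. Its probeset (10469322) read 10.70, 10.68 and 10.57 in shECAD clones 4, 8 and 9, against 10.52, 9.52 and 9.35 in control clones 2, 3 and 4. The shECAD clones lay within 0.13 of each other, while the control clones spanned 1.17, and control clone 2 lay only 0.05 under the lowest shECAD clone. Vim averaged 10.65 ± 0.07 in shECAD clones and 9.80 ± 0.63 in control clones (SD, n = 3 each). This is a log2 fold change of 0.85 ± 0.27 SE, with a 95% interval from 0.26 to 1.44, a limma adjusted p of 0.119 and a two-sided exact permutation p of 0.1. Leaving out control clone 2 gave 1.21 with a limma adjusted p of 0.0102. With any other single clone left out, the adjusted p stayed above the threshold and reached 0.338.

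Lmna, which encodes the A-type lamins A and C, had a similar arrangement of clones at a smaller size. Its probeset (10499394) read 7.28, 7.46 and 7.19 in shECAD clones 4, 8 and 9, against 7.11, 6.42 and 6.37 in control clones 2, 3 and 4. Control clone 2 again stood above the other control clones, 0.08 under the lowest shECAD clone. Lmna averaged 7.31 ± 0.14 in shECAD clones and 6.63 ± 0.42 in control clones (SD, n = 3 each). This is a log2 fold change of 0.68 ± 0.21 SE, with a 95% interval from 0.21 to 1.14, a limma adjusted p of 0.116 and a two-sided exact permutation p of 0.1. Without control clone 2 it was 0.92 with a limma adjusted p of 0.0298, and without control clone 4 it was 0.54 with an adjusted p of 0.337. With 1 probeset for the gene, lamin A and lamin C are not told apart.

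Vim and Lmna resembled each other more than either resembled Nes. As a measure of likeness, each gene was centred on its mean and the root mean square difference was taken over the 6 arrays. It was 0.17 log2 units between Vim and Lmna, and of the other 19937 genes 19 lay nearer to Vim than Lmna did. Between Nes and Vim it was 0.63, and 12570 genes lay nearer to Vim than Nes did. In the other direction, 109 genes lay nearer to Lmna than Vim did, and 4886 lay nearer to Nes than Vim did. The measure is not scaled, so genes that vary little can lie nearer than Nes, as Lmnb1 did at 0.56 from Vim. Nearest genes were sought among 9711 genes no dimmer than the median gene, with Gm, Rik and LOC symbols left out. The 5 nearest to Vim were Ahnak, which encodes a giant scaffold protein of the cell periphery, Chst2, the prostaglandin synthase gene Ptgs2, Fxyd5 and Tm4sf1, with differences between 0.12 and 0.15. The 5 nearest to Lmna were Slc41a2, the membrane-bending protein gene Bin1, Id2, the cyclin D1 gene Ccnd1 and Itm2b, with differences between 0.09 and 0.10. The 5 nearest to Nes were Trh, the gene of thyrotropin-releasing hormone, the planar polarity gene Prickle1, the arrestin gene Arrb1, Zfp608 and Klf6, with differences between 0.11 and 0.18. Trh read 8.78, 8.92 and 9.87 in shECAD clones 4, 8 and 9, against 7.56, 8.14 and 7.72 in control clones 2, 3 and 4. Like Nes, it was highest in shECAD clone 9 and lowest in control clone 2, which follows from its choice as the gene nearest to Nes.

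**Figure D3:**
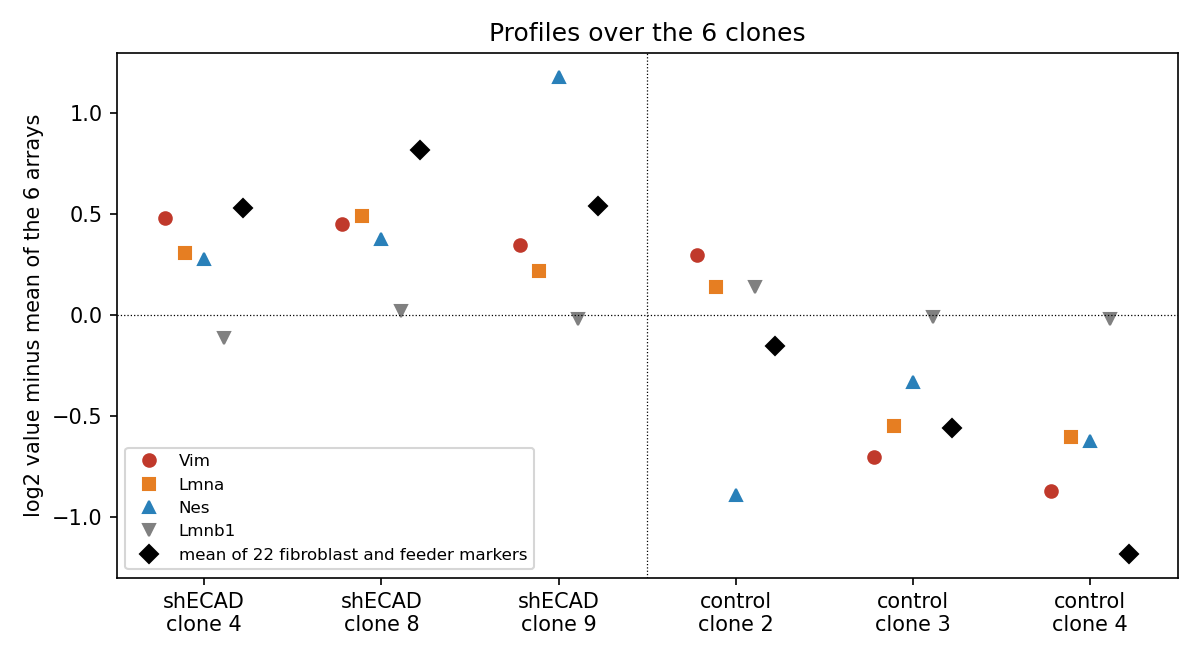
Log2 values of Vim, Lmna, Nes and Lmnb1 and the mean of the 22 fibroblast and feeder markers, each minus its mean over the 6 arrays (vertical axis), in the shECAD clones (left of the dotted line) and the control clones (right of it). In control clone 2, Vim lies at 0.30 and Lmna at 0.14, while the marker mean lies at -0.15 and Nes at -0.89.

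The fibroblast and feeder markers were also higher in the clones in which Vim and Lmna were high, and their part in these differences was not tested. In control clone 2 their mean, 6.67, exceeded that of control clones 3 and 4, 6.26 and 5.65, but stayed further below the shECAD clones than Vim did. Vim minus the mean of the markers, within each array, was 3.35, 3.03 and 3.21 in shECAD clones 4, 8 and 9, against 3.85, 3.26 and 3.71 in control clones 2, 3 and 4. This difference averaged 3.20 ± 0.16 in shECAD clones and 3.61 ± 0.31 in control clones (SD, n = 3 each), so that Vim differed less between the groups than the marker mean did. Of the 22 markers, those with the largest rises were the collagen cross-linking enzyme gene Lox (log2 fold change 2.35, limma adjusted p = 0.007), the matrix protein genes Postn (2.26, adjusted p = 0.00282) and Fbln2 (2.10, adjusted p = 0.00553), and Ccdc80 (2.05, adjusted p = 0.00422). Postn and Ccdc80 lay below the 25th percentile of genes on 1 array, that of control clone 4, at 3.72 and 3.59, so the sizes of these changes are less certain. The list held 8 calls without shECAD clone 4, control clone 3 or control clone 4 and 5 calls without shECAD clone 8. The median log2 fold change was 1.09 for these 22 genes, against 0.03 for all genes.

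Smooth muscle markers, which cells with vimentin and desmin filaments can share, were called higher in 4 of 6 cases and lower in 0. Acta2, the gene of smooth muscle actin, had a log2 fold change of 3.42, Tagln, an actin-binding protein gene, 1.73, the calponin gene Cnn1 1.53 and the caldesmon gene Cald1 1.51 (limma adjusted p = 0.00812, 0.00293, 0.0119 and 0.0123). In control clones 2, 3 and 4, Acta2 read 8.06, 6.57 and 5.62, Tagln 6.26, 6.30 and 5.75, Cnn1 4.39, 4.87 and 4.43, and Cald1 6.70, 6.22 and 5.85, so that clone 2 was the highest control clone for Acta2 and Cald1 and not for Tagln and Cnn1. Cald1 lost its call without shECAD clone 8 (limma adjusted p = 0.0536).

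Desmin, the filament of muscle cells, did not follow. Des (probeset 10347583) read 5.41, 5.53 and 5.76 in shECAD clones 4, 8 and 9, against 5.17, 5.53 and 5.44 in control clones 2, 3 and 4, and the groups overlapped. Its log2 fold change of 0.18 ± 0.17 SE had a 95% interval from -0.19 to 0.55 (limma adjusted p = 0.619). Of 10 striated muscle markers, 0 were called in either direction, and 4 lay below the median gene on every array. Their median log2 fold change was 0.26, against 0.03 for all genes. In 2 of the 10, every shECAD clone lay above every control clone, as in 11.1% of all genes, and in 0 every one lay below. The largest differences were in the actin genes Acta1 (0.75, limma adjusted p = 0.06) and Actc1 (0.57, adjusted p = 0.359). Acta1 passed the threshold in 4 alternatives, among them without control clone 2 (0.88, limma adjusted p = 0.0466).

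Gfap, the filament gene of astrocytes, was dim. Its probeset (10391798) read 3.94, 4.13 and 4.31 in shECAD clones 4, 8 and 9, against 3.99, 3.50 and 4.15 in control clones 2, 3 and 4. It lay below the 25th percentile of genes on 4 of the 6 arrays, so its level is close to the floor, where the size of a change is compressed. Its fitted log2 fold change was 0.25 ± 0.20 SE (95% interval -0.19 to 0.68, limma adjusted p = 0.56). Of 6 astrocyte markers 1 was called higher, 0 were called lower, and 4 lay below the median gene on every array. The called gene was the gap junction gene Gja1, which many cell types express (log2 fold change 0.95, limma adjusted p = 0.0233). The median log2 fold change of the 6 was 0.39, against 0.03 for all genes. In 4 of the 6, Gja1 among them, every shECAD clone lay above every control clone, a pattern seen in 11.1% of all genes. Gja1 lost its call without control clone 4 or any 1 shECAD clone, with adjusted p-values up to 0.0921.

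Synemin, which joins vimentin and desmin filaments and ties them to adhesion sites, was higher in every shECAD clone than in any control clone but did not pass the test. Synm (probeset 10564482) read 5.96, 5.46 and 5.31 in shECAD clones 4, 8 and 9, against 4.99, 4.90 and 5.18 in control clones 2, 3 and 4. It was highest in shECAD clone 4, as was Vim by a narrow margin. Its log2 fold change of 0.55 ± 0.19 SE had a 95% interval from 0.13 to 0.98, a limma adjusted p of 0.157 and a two-sided exact permutation p of 0.1. Without shECAD clone 4 it was 0.36 with a limma adjusted p of 0.391.

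The B-type lamins did not pass the test, and their groups overlapped. Lmnb1 (probeset 10455813) read 9.15, 9.28 and 9.24 in shECAD clones 4, 8 and 9, against 9.40, 9.25 and 9.23 in control clones 2, 3 and 4, and had the smallest SD over the 6 arrays of the 8 genes, 0.08. Its log2 fold change was -0.07 ± 0.15 SE, turned to 0.044 after quantile normalization, and had a 95% interval from -0.39 to 0.25 (limma adjusted p = 0.844). Lmnb2 (probeset 10371012) read 6.95, 6.84 and 6.37 in shECAD clones 4, 8 and 9, against 6.92, 7.00 and 6.73 in control clones 2, 3 and 4. Its log2 fold change was -0.16 ± 0.18 SE (95% interval -0.57 to 0.24, limma adjusted p = 0.695), and without shECAD clone 9, its lowest clone, it was 0.011.

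The A-type and B-type lamins were also set against each other within each array, as a description with no test. Lmna minus the mean of Lmnb1 and Lmnb2 was -0.77, -0.60 and -0.61 in shECAD clones 4, 8 and 9, against -1.05, -1.70 and -1.61 in control clones 2, 3 and 4. Every shECAD clone lay above every control clone, and the mean was -0.66 ± 0.10 in shECAD clones and -1.45 ± 0.36 in control clones (SD, n = 3 each). The difference between the groups was 0.79 log2 units. Lmna alone had a log2 fold change of 0.68 and the same separation of clones, so this difference is not separate from the change of Lmna. None of the 3 lamin genes passed the test by itself, and the size within an array depends on the probes.

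The partners of the lamins at the nuclear envelope mostly did not pass the test. Of 16 measured genes 1 was called lower and 0 higher, and the median log2 fold change was -0.09. In 4 of the 16 every shECAD clone lay below every control clone, as in 12.5% of all genes. In 1, Syne1, every one lay above (log2 fold change 0.64, limma adjusted p = 0.104), as in 11.1% of all genes. The called gene was Syne2, which encodes nesprin-2, an outer nuclear membrane protein that ties the nucleus to the actin cytoskeleton. It read 5.02, 5.65 and 6.19 in shECAD clones 4, 8 and 9, against 7.15, 7.01 and 7.39 in control clones 2, 3 and 4. The groups lay well apart, with a log2 fold change of -1.56 ± 0.26 SE (limma adjusted p = 0.0153). The call was lost without shECAD clone 8 (-1.58, adjusted p = 0.0589) and without control clone 4 (-1.46, adjusted p = 0.0591). Of 6 genes of enzymes that modify protein tails such as that of the lamins, 0 were called in either direction and the median was 0.01. The largest differences among them were in the farnesyltransferase subunit gene Fntb (-0.40, limma adjusted p = 0.36) and in Zmpste24, the protease gene of prelamin A (0.16, adjusted p = 0.694).

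Of 8 further intermediate filament genes, neurofilaments and lens filaments among them, 2 were called higher in shECAD clones and 0 lower, and the median log2 fold change was 0.18. They were neurofilament genes. Nefl read 6.20, 6.77 and 6.63 in shECAD clones 4, 8 and 9, against 5.76, 5.33 and 5.31 in control clones 2, 3 and 4 (log2 fold change 1.07 ± 0.20 SE, limma adjusted p = 0.0238). Nefm had a log2 fold change of 0.77 ± 0.18 SE (limma adjusted p = 0.045) and lay below the 25th percentile of genes on 2 arrays. Nefl lost its call without shECAD clone 8, shECAD clone 9, control clone 3 or control clone 4 (adjusted p up to 0.0956), and Nefm lost it without any 1 clone (up to 0.17), after median centring (0.0725) and after quantile normalization (0.122).

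Of 11 genes listed as linkers of filaments to junctions and the cytoskeleton, chaperones or other partners, 3 were called higher and 0 lower. Their median log2 fold change was 0.28. Dsp, which encodes desmoplakin, the anchor of filaments at desmosomes, had a log2 fold change of 1.46 (limma adjusted p = 0.00617). Cryab, the gene of a small heat shock protein that binds desmin and vimentin, read 6.30, 6.36 and 6.50 in shECAD clones 4, 8 and 9, against 5.68, 4.85 and 5.13 in control clones 2, 3 and 4 (log2 fold change 1.16 ± 0.21 SE, limma adjusted p = 0.0204). Plec, the gene of the linker plectin, read 7.55, 7.48 and 7.37 in shECAD clones 4, 8 and 9, against 6.96, 6.82 and 6.53 in control clones 2, 3 and 4 (0.70 ± 0.16 SE, adjusted p = 0.0493). Dsp was the only one of these 3 called in each fit with 1 clone left out. Cryab kept its call only without control clone 2 and otherwise reached an adjusted p of 0.0784, and Plec lost its call without any 1 clone (up to 0.193) and after median centring (0.0754).

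**Figure D4:**
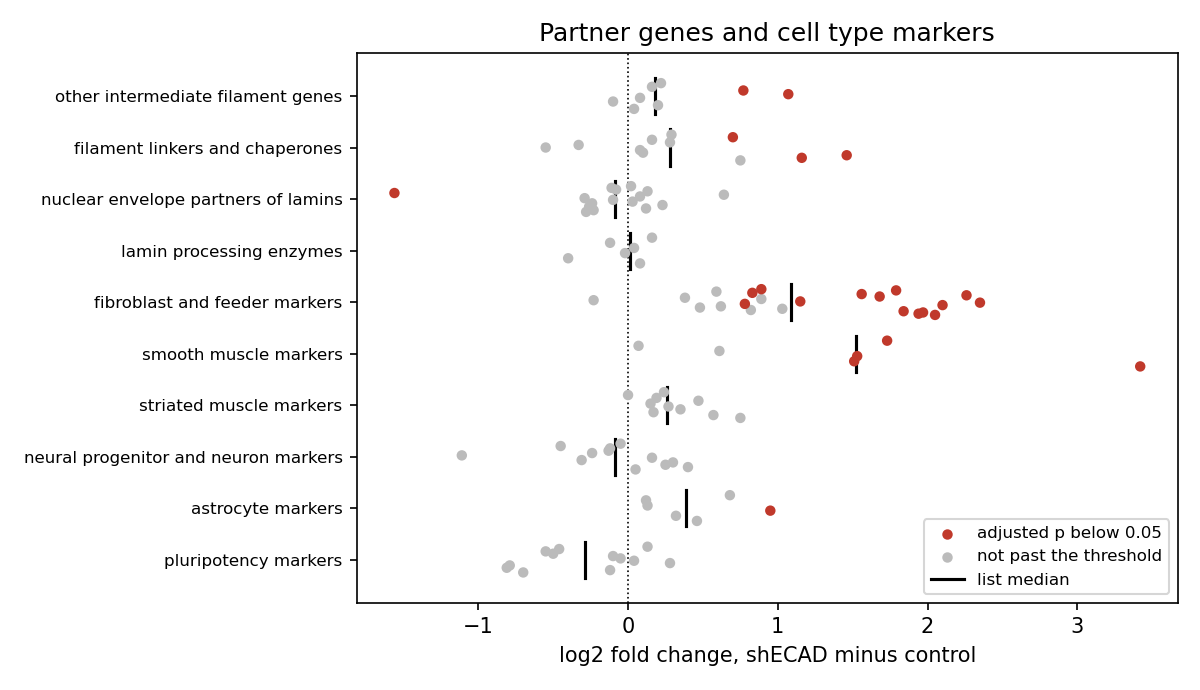
Log2 fold changes, shECAD minus control (horizontal axis), of the partner genes and cell type markers, with 1 row per list, 1 point per gene (red where the adjusted p is below 0.05, grey otherwise) and a black bar at the list median. The fibroblast and smooth muscle lists lie to the right, with medians of 1.09 and 1.52, and Syne2 is the only called gene to the left of 0, at -1.56.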

How the data were processed

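Per the submitters' processing notes, the deposited log2 expression values, 1 per probeset and array, came from RMA and Partek. RNA input was 100 ng, per the labels' protocols. No source used here gives software versions or the genome build. RMA values carry no detection call, and dim probesets are compressed towards a floor. Values were used as deposited for 28853 probesets, of which 21789 have 1 gene symbol in the platform annotation. Each of 19938 genes was represented by its brightest probeset (mean of the 6 arrays), with no filter on dim genes, and 0 probesets named a member beside other genes.

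The groups were compared with limma 3.58.1 in R 4.3.3 (lmFit and eBayes, no covariate), with Benjamini-Hochberg adjustment over all genes and calls at an adjusted p below 0.05. Single genes were also compared by exact permutation. The fit was tested on simulated data. Figures were drawn with matplotlib 3.10.9. Promoter windows came from RefSeq, build GRCm38.p6. The members and lists were chosen with earlier results of these data known. Named genes are the 8 members, Cdh1, per list the 4 largest called changes (or, with none called, the 2 largest changes), and the 5 genes nearest to each of the 3 most variable members. Pou5f1 and Nanog were added as familiar examples, and Syne1 for its direction, after their values were seen. Alternatives were median centring, quantile normalization, the mean of a gene's probesets, every probeset, brighter genes alone, another or no variance prior, array weights, and leaving out each clone. The number of arrays limits the precision.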

Additional observations from a re-analysis of the deposited data

How the results depend on the processing

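Of 110 fold changes of the 8 genes under the alternatives, 101 kept their direction and their side of the threshold. This count includes alternatives that cannot move these fold changes: those on probesets (1 per gene here), brighter genes alone and the variance prior. In them only the adjusted p could change. Nes was called in 9 of 14 alternatives. It was not called without variance moderation (log2 fold change 1.22, adjusted p = 0.261 from an ordinary t-test). In that fit 3 genes were called in all (Bbs1, Pold1 and Slc35f5, named after their values were seen) and 2972 had an unadjusted p below 0.05. With 1 clone left out the log2 fold change of Nes ranged from 0.94 to 1.39. Over the same fits it ranged from 0.63 to 1.21 for Vim, from 0.54 to 0.92 for Lmna, from 0.36 to 0.69 for Synm, from 0.08 to 0.26 for Des, from 0.05 to 0.38 for Gfap, from -0.10 to -0.02 for Lmnb1 and from -0.28 to 0.011 for Lmnb2. Vim and Lmna were called in 1 of 14 alternatives each, without control clone 2, and Synm, Des, Gfap, Lmnb1 and Lmnb2 in 0. Lmnb1 turned to 0.044 after quantile normalization and Lmnb2 to 0.011 without shECAD clone 9. Over all genes, array weights gave 1067 calls against 623, and leaving out 1 clone gave 146 to 543. The cause of these shifts was not tested. Where 1 clone was left out, the number of clones was also smaller. Gfap and Synm lay below the median level and have no value among brighter genes alone. No paired analysis was possible because the groups share only 1 clone number, which names separate clones. Signal near the floor limits what can be read for Gfap.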
